A study of Homo sapiens with 21 samples.

Results

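The AP-1 and immediate early genes examined here were the 10 genes FOS, FOSB, FOSL1, FOSL2, JUN, JUNB, JUND, EGR1, IER2 and IER3, taken from the 42339 genes of the raw count table by their Ensembl identifiers. Each identifier matched 1 row of the table. BT-549, an established human TNBC cell line, was analyzed by bulk RNA-seq in 7 groups of 3 libraries. The 2D cells were wild-type monolayers grown in RPMI1640 with serum and insulin, and the 3D cells were wild-type mammospheres at passage 6 in MammoCult medium on ultra-low attachment plates. A further group of 3D cells received 0.75 μmol/L GO-203, a peptide inhibitor directed at the CQC motif of MUC1-C. Mammospheres carrying tet-MUC1shRNA at passage 6 received 0.1% DMSO (vehicle) or 500 ng/ml doxycycline (DOX), and those carrying tet-MYCshRNA at passage 8 received the same agents. DOX switches on the shRNA in these lines. Each shRNA was a single sequence in a puromycin-selected line, and wild-type or control-shRNA cells given DOX were not analysed here, so an effect of DOX itself cannot be told apart from that of the shRNA. The 2D and 3D cells differed in growth format and in medium, and these cannot be told apart either.

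FOS and JUN proteins pair through leucine zippers to form AP-1, a transcription factor that binds TGANTCA sites. FOS family proteins need a JUN partner, whereas JUN proteins also pair with each other. FOS, FOSB, JUN, JUNB, EGR1, IER2 and IER3 are immediate early genes, which cells transcribe within minutes of a stimulus from factors that are already present. FOSL1 and FOSL2 (also called FRA-1 and FRA-2) respond later and last longer, and FRA-1 is known as the prominent FOS family protein of mesenchymal TNBC cells.

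In GRCh38, with the positions of GENCODE 44, FOS (ENSG00000170345.10) spans chr14:75278826-75282230 and FOSB (ENSG00000125740.14) chr19:45467995-45475179. FOSL1 (ENSG00000175592.9) spans chr11:65892049-65900573 on the minus strand and FOSL2 (ENSG00000075426.12) chr2:28392448-28417317. JUN (ENSG00000177606.8) spans chr1:58776845-58784048 and JUND (ENSG00000130522.6) chr19:18279694-18281622, both on the minus strand. JUNB (ENSG00000171223.6) spans chr19:12791486-12793315, IER2 (ENSG00000160888.7) chr19:13150411-13154911 and EGR1 (ENSG00000120738.8) chr5:138465479-138469303. JUNB and JUND are single-exon genes, and values are over the exons of each gene.

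Total counts ranged from 38026597 to 99751717 per library over the 21 libraries. The labelled cell type was checked first. VIM, a mesenchymal filament, lay between 1076 and 2486 CPM (counts relative to library size, scaled by edgeR's TMM factors over the 21 libraries) and ZEB1, a repressor of epithelial genes, between 88.0 and 339 CPM. FN1 and SPARC, of the matrix, lay at or above 441 and 197 CPM, and the cadherin CDH2 between 11.3 and 452 CPM. The receptor genes ESR1 and PGR did not exceed 1.48 CPM. Of 8 markers of leukocytes, endothelium and epithelium, the summed level was 2.67 to 3.39 CPM in 2D cells and 4.62 to 10.4 CPM in the mammosphere groups, where the endothelial gene PECAM1 made up most of it. CD3E, VWF and EPCAM did not exceed 0.17 CPM in any library. MUC1 fell from 83.2–101 CPM with vehicle to 19.7–23.3 CPM with DOX in the tet-MUC1shRNA line, a log2 fold change of -2.06. MYC fell from 386–439 CPM to 244–297 CPM in the tet-MYCshRNA line, a log2 fold change of -0.62. MUC1 rose by a log2 of 1.25 in that line. In this bulk RNA, fewer cells of a type and less RNA per cell cannot be told apart. The study's methods describe triplicate cultures, and the labels do not say more of them, so p-values measure the spread between these libraries.

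The promoters of FOS, FOSB, EGR1 and JUND are shown because these genes all rose in 3D cells and with GO-203 and then differed on MUC1 and MYC silencing. The 250 bases before the start were taken from a table of RefSeq promoters (GRCh38.p14) for 8 of the 10 genes. Those of FOSL1 and IER3 were not analysed here. They were searched on both strands for 7 motifs. TGACG, the core of the cyclic AMP response element, was found in 8 of 8 promoters and in 21.2% of all 35116 RefSeq promoters of this length. The CArG box, bound by serum response factor (SRF), was found in 1 of 8, EGR1, with 2 sites, and in 1.16% of all promoters. Sites more than 250 bases before the start, of FOS or of any other member, were not searched for. No promoter of the 8 held TGANTCA, the form of the AP-1 site that was searched for, which 6.57% of all promoters held. Longer forms of that site were not among the motifs. TATAAA stood in 3 of 8 (FOS, FOSB and JUNB) against 10.7%, CCGGAA in 2 of 8 (FOSB and IER2) against 14.5%, GCGNGGGCG in 1 of 8 (EGR1) against 8.41% and CACGTG in 0 of 8 against 6.34%. Capitals in the sequences mark TGACG on either strand, where the other strand reads CGTCA, and the CArG box. In JUND a pair of overlapping matches reads TGACGTCA, 200 to 193 bases before the start. FOS and FOSB each had 1 match, at 64 to 60 and at 60 to 56 bases before the start. In EGR1 the CArG boxes lay 105 to 96 and 83 to 74 bases before the start. A match describes the letters of the sequence and was not tested for binding.
FOS promoter, chr14:75278578-75278827, plus strand: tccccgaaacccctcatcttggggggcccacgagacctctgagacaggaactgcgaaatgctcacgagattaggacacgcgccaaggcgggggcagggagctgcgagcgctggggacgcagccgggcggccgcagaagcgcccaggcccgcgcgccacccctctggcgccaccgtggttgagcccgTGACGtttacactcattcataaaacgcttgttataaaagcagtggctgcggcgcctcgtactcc
FOSB promoter, chr19:45467746-45467995, plus strand: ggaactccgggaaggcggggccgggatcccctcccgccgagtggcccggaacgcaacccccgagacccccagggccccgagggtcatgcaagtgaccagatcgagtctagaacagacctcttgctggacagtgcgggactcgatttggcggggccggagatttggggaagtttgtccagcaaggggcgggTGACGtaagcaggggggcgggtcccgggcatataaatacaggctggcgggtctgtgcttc
EGR1 promoter, chr5:138465229-138465478, plus strand: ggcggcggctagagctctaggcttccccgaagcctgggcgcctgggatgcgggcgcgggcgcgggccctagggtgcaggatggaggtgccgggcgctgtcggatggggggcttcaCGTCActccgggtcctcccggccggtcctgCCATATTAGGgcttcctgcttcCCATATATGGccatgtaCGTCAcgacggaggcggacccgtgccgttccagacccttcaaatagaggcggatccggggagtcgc
JUND promoter, chr19:18281623-18281872, minus strand: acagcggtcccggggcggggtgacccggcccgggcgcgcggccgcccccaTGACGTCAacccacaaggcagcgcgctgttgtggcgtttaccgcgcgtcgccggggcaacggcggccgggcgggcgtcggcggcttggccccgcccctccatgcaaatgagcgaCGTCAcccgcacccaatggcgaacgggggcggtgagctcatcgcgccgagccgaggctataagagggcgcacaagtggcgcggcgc

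To learn how these genes differ between mammospheres and monolayers, 3D cells were compared with 2D cells. All 9 members that could be tested were higher in 3D cells and 0 were lower. A gene passed at an adjusted p below 0.1 from edgeR's quasi-likelihood test, and 32.0% of the 19190 genes tested were higher by that rule while 31.7% were lower. The largest changes were those of FOSL1, FOS and EGR1. FOSL1 was counted at 28.3, 22.1 and 19.7 CPM in 2D cells and at 202.8, 191 and 204 CPM in 3D cells. It was 8.52-fold higher, a log2 fold change of 3.09 ± 0.10 (standard error, here and below; adjusted p = 1.4e-13). FOS, the founding member of the family, was low in 2D cells at 1.73, 1.95 and 1.23 CPM. The 3D libraries had 11.5, 11.4 and 9.24 CPM of FOS, a log2 fold change of 2.71 ± 0.17 (adjusted p = 8.4e-10). FOSB rose with it, from 1.15, 1.44 and 1.56 CPM to 7.04, 6.68 and 5.50 CPM (log2 fold change 2.19 ± 0.18). FOSL2 moved least of the 4, from 130, 121 and 119 CPM to 178, 174 and 170 CPM (log2 fold change 0.49 ± 0.06).

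**Figure D1:**
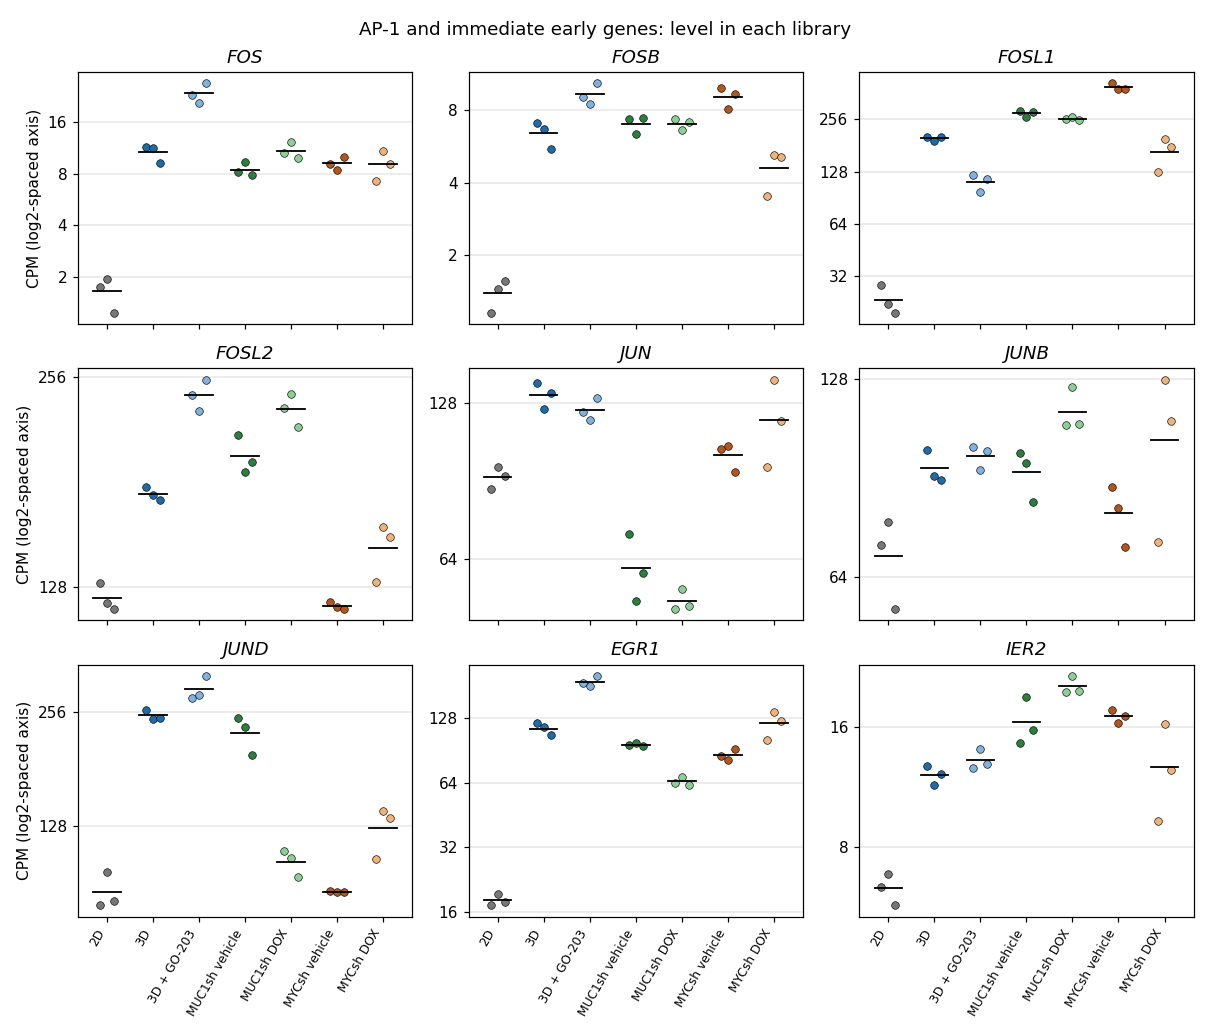
CPM of 9 members in each of the 21 libraries on log-scaled axes with a separate range per gene, with groups on the horizontal axis, points for libraries and bars for group means. The 2D libraries sit lowest for FOS, FOSB, FOSL1, EGR1 and IER2, and JUN is lowest in the tet-MUC1shRNA line.

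The JUN family changed unevenly. JUND, the JUN protein that is least dependent on growth factors, was counted at 79.2, 96.9 and 81.1 CPM in 2D cells and at 259, 245 and 246 CPM in 3D cells. Its log2 fold change was 1.54 ± 0.07 (adjusted p = 1.6e-11). JUN rose from 87.6, 96.5 and 92.8 CPM to 140, 125 and 134 CPM, a log2 fold change of 0.52 ± 0.06. JUNB rose from 71.6, 77.5 and 57.3 CPM to 100.0, 91.2 and 90.0 CPM, a log2 fold change of 0.44 ± 0.09 (adjusted p = 4.0e-04). Among the others, EGR1, a zinc finger factor and a classical target of SRF, was at 17.2, 19.4 and 17.8 CPM in 2D cells and 121, 117 and 107 CPM in 3D cells. Its log2 fold change was 2.65 ± 0.07 (adjusted p = 1.7e-14). IER2, a small nuclear protein of the immediate early response, went from 6.34, 6.83 and 5.71 CPM to 12.7, 11.4 and 12.2 CPM (log2 fold change 0.94 ± 0.11). FOS, FOSB, FOSL1, JUND and EGR1, 5 of 9, also exceeded a log2 fold change of 1.5, against 6.9% of all genes tested. The median log2 fold change of the 9 was 1.54, beside -0.01 over all genes.

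Some of these rises depended on which mammospheres were taken. The vehicle-treated tet-MUC1shRNA mammospheres, of the same passage, had 71.5, 53.2 and 60.1 CPM of JUN, below the range of 2D cells. With that group in place of 3D cells, the log2 fold change against 2D cells was -0.59 (adjusted p = 1.1e-05), and the other 8 members were still higher, as was IER3, which could be tested there. In the vehicle-treated tet-MYCshRNA mammospheres, at passage 8, the libraries overlapped with those of 2D cells for JUND, FOSL2, JUN, JUNB and IER3. The difference was not tested, and such overlap was not counted over all genes. JUND was at 86.0 ± 0.24 CPM there and 85.7 ± 9.69 CPM in 2D cells (SD, n = 3), and FOSL2 at 119 to 122 and 119 to 130 CPM. JUN was at 94.4 to 106 CPM there and 87.6 to 96.5 CPM in 2D cells, and JUNB at 71.1 to 87.7 and 57.3 to 77.5 CPM. FOS, FOSB, FOSL1, EGR1 and IER2 lay above the 2D libraries in both vehicle groups. The mesenchymal markers also differed between 3D and 2D cells, with log2 fold changes of -3.97 for SPARC, -3.11 for CDH2, 3.89 for FN1, 1.14 for ZEB1 and 0.12 for VIM. PECAM1 was at 0.00 to 0.03 CPM in 2D cells and 5.92 to 7.29 CPM in 3D cells, and the epithelial gene CDH1 at 1.27 to 1.51 and 0.00 CPM. The epithelial gene KRT8 went the other way, from 0.10 to 0.23 CPM in 2D cells to 0.45 to 0.58 CPM in 3D cells (log2 fold change 1.51). PTPRC, a leukocyte gene, was at 1.03 to 1.49 CPM in 2D cells and 0.03 to 0.12 CPM in 3D cells. The part of such markers in the result was not tested.

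Genes outside the AP-1 set but of related roles moved as follows in 3D cells. Of 25 other immediate early genes tested, 20 were higher and 3 were lower, with a median log2 fold change of 1.06. The largest among them were RHOB, a small GTPase (log2 fold change 3.18), the zinc finger factor KLF2 (2.97), the MAP kinase phosphatase DUSP1 (2.96) and the orphan receptor NR4A2 (2.92). Of 10 other bZIP proteins that can pair with FOS or JUN or share their sites, 5 were higher and 3 were lower. MAFF, a small MAF protein, was higher (log2 fold change 3.87), whereas JDP2, a repressor that pairs with JUN, was lower (-3.44). Of 20 upstream factors and kinases, 13 were higher and 5 lower, and ELK3, an ETS partner of SRF, changed most (2.83). Of 15 genes widely known as AP-1 targets, 9 were higher and 5 were lower. CCND1, the cyclin of early G1, and CXCL8, a chemokine, were higher (log2 fold changes 6.11 and 4.23). The protease MMP9 and the growth factor HBEGF were lower (-3.50 and -3.18). SRF and ATF3 each stood in 2 of these lists.

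Because the same gene count can hide a change of partners, the makeup of each family was computed per length. In CPM per kb of exon, FOSL2 was the leading FOS family transcript in 2D cells, with 56.9% ± 3.21 (SD, n = 3) of the summed level, and FOSL1 had 40.6% ± 3.36 (SD, n = 3). In 3D cells FOSL1 held 78.6% ± 0.94 (SD, n = 3) and FOSL2 18.1% ± 0.53 (SD, n = 3). The summed FOS family level was 30.4 CPM per kb in 2D cells and 134 in 3D cells. FOSL1 led in each mammosphere group, from 58.1% with GO-203 to 90.7% in vehicle-treated tet-MYCshRNA cells. FOS and FOSB were minor throughout, with group means of at most 7.27% and 1.64%. In the JUN family, JUND held 41.3% ± 1.72 (SD, n = 3) of the level in 2D cells against 59.6% ± 0.57 (SD, n = 3) in 3D cells. The summed JUN family level was 108 CPM per kb in 2D cells and 218 in 3D cells.

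**Figure D2:**
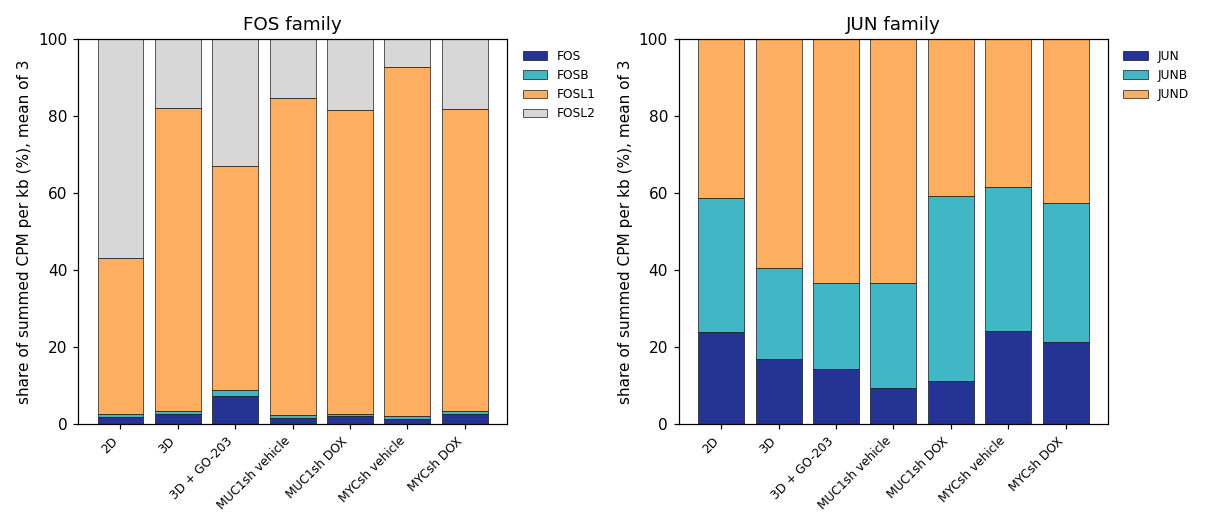
Share of each member in the summed level of its family (CPM per kb of exon, percent, mean of 3 libraries) for the 7 groups. FOSL1 takes 40.6% of the FOS family in 2D cells and 78.6% in 3D cells, and JUND takes 63.3% of the JUN family in tet-MUC1shRNA cells with vehicle and 40.9% with DOX.

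To ask how these genes respond when MUC1-C is inhibited, 3D cells with GO-203 were compared with the 3D cells above. The labels call the latter control, and the paper describes this comparison as one against vehicle. FOS, EGR1, FOSB, FOSL2 and JUND were higher with GO-203 and FOSL1 was lower. That is 5 of 9 tested higher and 1 of 9 lower, where 11.1% of the 18488 genes tested were higher and 12.9% lower. FOS had 23.3, 20.8 and 27.1 CPM with GO-203, against 9.24 to 11.5 CPM without it. Its log2 fold change was 1.18 ± 0.10 (adjusted p = 1.9e-08), and its treated level was the highest of the 7 groups without overlap. EGR1 was also at its highest, at 186, 180 and 202 CPM, a log2 fold change of 0.75 ± 0.06 (adjusted p = 1.3e-08). FOSB reached 9.09, 8.47 and 10.3 CPM (log2 fold change 0.57 ± 0.12, adjusted p = 0.00201). FOSL2 reached 241, 229 and 254 CPM (log2 fold change 0.50 ± 0.06), and JUND 279, 284 and 318 CPM (log2 fold change 0.26 ± 0.06, adjusted p = 0.00234). In the fit of all 21 libraries the call of JUND was lost (0.23, adjusted p = 0.105).

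FOSL1 went the other way. It was at 122, 98.0 and 117 CPM with GO-203, a change of -0.80 ± 0.07 on the log2 scale (adjusted p = 1.2e-08), without overlap between the groups. FOSL1's share of the FOS family was 58.1% with GO-203 against 78.6% without it, and the share of FOS was 7.27% against 2.50%. The libraries of the groups overlapped for IER2, JUNB and JUN, which did not pass. Their log2 fold changes were 0.15 ± 0.09 (adjusted p = 0.300), 0.09 ± 0.06 (adjusted p = 0.340) and -0.06 ± 0.06 (adjusted p = 0.533). MUC1 itself was slightly higher with GO-203, at 244 to 264 CPM against 182 to 222 CPM. The summed level of the 8 markers of other cell types was 6.60 to 7.97 CPM in 3D cells and 7.19 to 7.48 CPM with GO-203. Of the 5 mesenchymal markers, SPARC alone passed (log2 fold change 0.69).

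**Figure D3:**
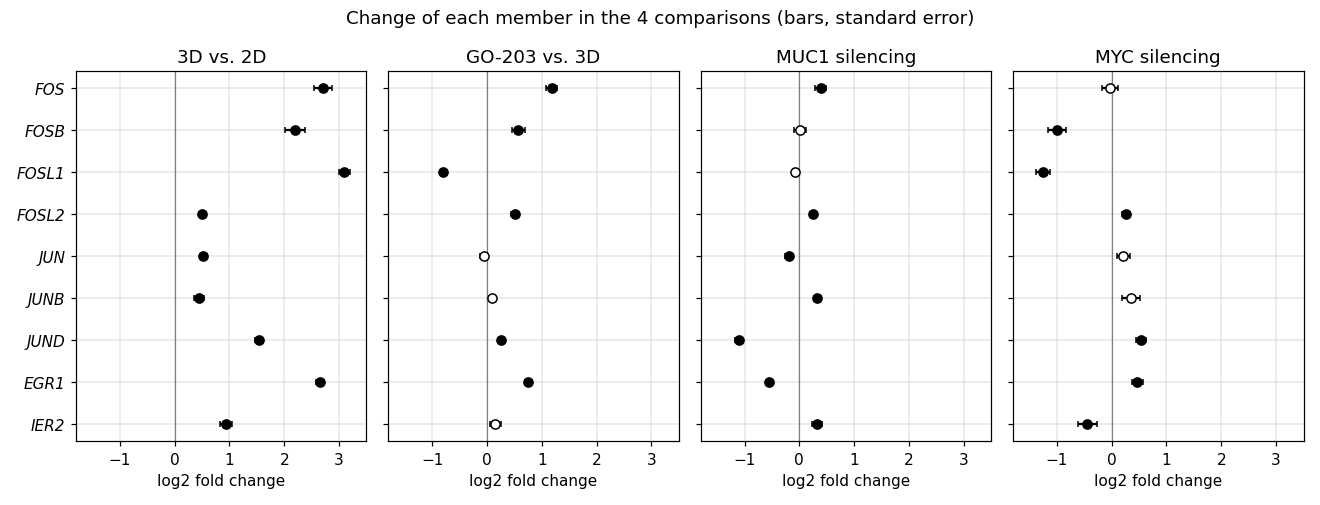
Log2 fold change of 9 members (horizontal axis) with its standard error in the 4 comparisons, with filled points for adjusted p below 0.1 and open points otherwise. All 9 points lie above 0 for 3D against 2D cells, and FOSL1 is the only filled point below 0 for GO-203, at -0.80.

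Of 25 other immediate early genes, 17 were higher with GO-203 and 3 were lower, with a median log2 fold change of 0.34. EGR3, a relative of EGR1, was higher by 1.68 on the log2 scale at a low level (0.36 CPM without and 1.13 CPM with GO-203). KLF2 was lower (-1.66). Of 10 other bZIP partners, 1 was higher and 0 were lower, and of 20 upstream factors and kinases 2 were higher and 4 lower. Of 14 known AP-1 targets, 3 were higher and 7 lower, including the collagenase MMP1 (log2 fold change -2.67, from 3.92 to 0.61 CPM).

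MUC1 silencing was examined next, since it lowers MUC1 itself. JUND and EGR1 fell, and FOS, JUNB, IER2 and FOSL2 rose. With JUN, 3 of 10 members were lower and 4 of 10 higher, where 31.6% of the 19220 genes tested were lower and 30.7% higher. JUND was at 246, 233 and 196 CPM with vehicle and at 110, 105 and 93.8 CPM with DOX. Its log2 fold change was -1.11 ± 0.07 (adjusted p = 1.0e-11), a level 2.15-fold lower. JUND's share of the JUN family went from 63.3% ± 1.13 (SD, n = 3) to 40.9% ± 2.31 (SD, n = 3), and JUNB became the leading JUN transcript per length, with 47.8% ± 1.97 (SD, n = 3). EGR1 went from 96.2, 98.2 and 94.9 CPM to 64.2, 68.4 and 62.5 CPM, a log2 fold change of -0.55 ± 0.05 (adjusted p = 4.2e-09).

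The rises were smaller. FOS was at 8.20, 9.32 and 7.91 CPM with vehicle and at 10.6, 12.2 and 9.94 CPM with DOX (log2 fold change 0.39 ± 0.10, adjusted p = 0.00264). JUNB was at 98.9, 95.4 and 83.3 CPM and then 109, 124 and 109 CPM (0.33 ± 0.06, adjusted p = 1.1e-04). These groups lay close to each other but did not overlap. IER2 went from 14.6, 19.0 and 15.6 CPM to 19.6, 21.4 and 19.6 CPM (0.32 ± 0.09, adjusted p = 0.00345). FOSL2 went from 211, 187 and 194 CPM to 231, 243 and 217 CPM (0.25 ± 0.05, adjusted p = 1.9e-04). JUN passed narrowly with groups that overlapped, at 71.5, 53.2 and 60.1 CPM with vehicle and 51.4, 56.2 and 52.1 CPM with DOX. Its log2 fold change was -0.19 ± 0.07 (adjusted p = 0.0395), and -0.07 without replicate 1 of the vehicle group (adjusted p = 0.317). The call of JUN was also lost without replicate 1 or 3 of the DOX group (-0.15 and -0.18, adjusted p = 0.161 and 0.113).

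FOSL1 was at 286, 265 and 282 CPM with vehicle and 258, 266 and 254 CPM with DOX, and did not pass (-0.08 ± 0.04, adjusted p = 0.127), although it did without replicate 2 of the vehicle group (-0.12, adjusted p = 0.0339). FOSB was at 7.31, 6.35 and 7.44 CPM and at 7.31, 6.63 and 7.15 CPM (0.02 ± 0.11, adjusted p = 0.893). Scaling by library size alone shifted the median change over all genes by a log2 of 0.17 in this comparison and the share of higher genes among those called from 49.3% to 64.4%. By that scaling FOSL1 passed as higher (0.090, adjusted p = 0.0594), and JUN did not pass (-0.02, adjusted p = 0.833). KRT8, an epithelial keratin, was at a mean of 0.04 CPM with vehicle and 1.34 CPM with DOX, and CDH1 at 0.00 to 0.05 and 0.23 to 0.41 CPM. PECAM1 fell from 4.06 to 2.99 CPM (log2 fold change -0.43, adjusted p = 0.021). The mesenchymal markers changed too, with log2 fold changes of 2.67 for CDH2, -1.41 for ZEB1, -0.90 for SPARC, -0.51 for FN1 and 0.18 for VIM. The summed level of the 8 markers was 4.62 to 4.93 CPM with vehicle and 4.89 to 5.49 CPM with DOX, and the part of all these markers in the result was not tested.

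Of 11 other bZIP partners, 8 were lower on MUC1 silencing and 2 were higher. Of 25 other immediate early genes, 13 were higher and 9 lower. TRIB1, a pseudokinase, was the one with the largest change (log2 fold change 2.23, from 76.6 to 353 CPM). Of 20 upstream factors and kinases, 8 were higher and 11 lower. Of 15 known AP-1 targets, 6 were higher and 7 lower. MMP3, a stromelysin, was higher (6.02, from 0.18 to 12.8 CPM). CXCL8, the cytokine IL6 and the matrix protein TNC were lower (-2.08, -1.56 and -1.55).

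On MYC silencing, FOSL1, FOSB and IER2 fell, and JUND, EGR1 and FOSL2 rose. This made 3 of 9 members lower and 3 of 9 higher, where 28.1% of the 19951 genes tested were lower and 30.3% higher. Replicate 1 of the DOX group stood apart, and was the lowest of its 3 libraries for 9 of 9 members. The SD of its log2 difference from the other two was 0.27 over 13602 genes, against 0.10 to 0.23 in the other 20 libraries. FOSL1 was at 414, 383 and 381 CPM with vehicle, the highest level of the 7 groups. With DOX it was at 127, 196 and 178 CPM, a log2 fold change of -1.25 ± 0.13 (adjusted p = 2.0e-05) that was -1.09 without that replicate. FOSB went from 9.90, 8.09 and 9.31 CPM to 3.51, 5.22 and 5.09 CPM (-0.998 ± 0.16, adjusted p = 4.4e-04). IER2 went from 17.6, 16.4 and 17.0 CPM to 9.30, 16.3 and 12.5 CPM (-0.44 ± 0.17, adjusted p = 0.0482), and its call was lost without replicate 1 of the vehicle group (adjusted p = 0.115) or replicate 3 of the DOX group (adjusted p = 0.122). Its log2 fold change was -0.27 without replicate 1 of the DOX group.

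JUND had 86.1, 85.7 and 86.1 CPM with vehicle and 105, 140 and 134 CPM with DOX (0.53 ± 0.10, adjusted p = 9.4e-04). EGR1 had 85.3, 82.2 and 91.6 CPM and then 102, 137 and 124 CPM (0.47 ± 0.10, adjusted p = 0.00264). FOSL2 had 122, 120 and 119 CPM and then 130, 156 and 151 CPM (0.26 ± 0.07, adjusted p = 0.0129). The groups did not overlap for these genes. JUNB was at 87.7, 81.6 and 71.1 CPM with vehicle and at 72.4, 128 and 110 CPM with DOX, so that replicate 1 lay within the vehicle range (0.35 ± 0.17, adjusted p = 0.110). JUN was at 105, 106 and 94.4 CPM and at 96.4, 142 and 119 CPM (0.21 ± 0.12, adjusted p = 0.172). Without replicate 1 of the DOX group, JUNB (0.55, adjusted p = 2.1e-04) and JUN (0.34, adjusted p = 0.00344) both passed, and 5 members were higher instead of 3. FOS was at 9.13, 8.43 and 10.0 CPM and at 7.30, 10.9 and 9.17 CPM (-0.03 ± 0.15, adjusted p = 0.892). PECAM1 was at 6.42 to 7.16 CPM with vehicle and 8.66 to 10.1 CPM with DOX, and the summed level of the 8 markers at 6.89 to 7.43 and 9.16 to 10.4 CPM. Of the mesenchymal markers, FN1 and SPARC were higher (1.25 and 0.82), CDH2 and ZEB1 slightly higher (0.22 and 0.16) and VIM slightly lower (-0.18). The part of these markers was not tested.

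Of 11 other bZIP partners, 7 were higher and 1 was lower on MYC silencing, with MAF (log2 fold change 3.00) and JDP2 (2.65) changing most. Of 25 other immediate early genes, 13 were higher and 6 lower. KLF2 was lower (-2.84, from 19.9 to 2.82 CPM), and NR4A2, KLF4 and RHOB were higher (2.14, 1.95 and 1.53). Of 20 upstream factors and kinases, 5 were higher and 8 lower. Of 15 known AP-1 targets, 4 were higher and 10 lower, among them CXCL8 and HBEGF (-3.32 and -1.95), whereas MMP1 was higher (1.61).

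The effects of DOX in the tet-MUC1shRNA and tet-MYCshRNA lines were then set against each other in one fit of 12 libraries. They differed for 7 of 10 members, where 52.9% of the 21585 genes tested differed. JUND and EGR1 fell on MUC1 silencing and rose on MYC silencing, with differences of -1.65 ± 0.14 (adjusted p = 1.7e-08) and -1.03 ± 0.12 on the log2 scale. FOSL1 and FOSB fell on MYC silencing and did not pass on MUC1 silencing, and the differences themselves passed (1.16 ± 0.15 and 1.003 ± 0.20). IER2 fell with MYC and rose with MUC1 silencing (difference 0.75 ± 0.21, adjusted p = 0.00585). The differences for JUN (-0.41 ± 0.16, adjusted p = 0.0482) and FOS (0.40 ± 0.19, adjusted p = 0.0962) were near the threshold, and those for FOSL2, JUNB and IER3 did not pass. The lines also differed in passage and in their vehicle levels, with JUND at 225 ± 25.7 CPM (SD, n = 3) in vehicle-treated tet-MUC1shRNA cells and 86.0 ± 0.24 CPM (SD, n = 3) in vehicle-treated tet-MYCshRNA cells.

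GO-203 and MUC1 silencing, which both act on MUC1 and shared no library, also differed for 7 of 10 members, where 44.9% of the 20829 genes tested differed. JUND and EGR1 rose with GO-203 and fell on silencing, with differences of 1.36 ± 0.10 and 1.30 ± 0.08. FOS rose with both, more with GO-203 (difference 0.79 ± 0.15, adjusted p = 1.1e-04). FOSL1 differed by -0.72 ± 0.08, FOSB by 0.55 ± 0.16, FOSL2 by 0.25 ± 0.07 and JUNB by -0.24 ± 0.09. The call of FOSL2 was lost with scaling by library size alone (0.10, adjusted p = 0.256), and that of JUNB in the fit of all 21 libraries (adjusted p = 0.345). The call of JUNB was also lost without replicate 1 of 3D cells, replicate 3 of the vehicle group or replicate 2 of the DOX group (adjusted p = 0.139, 0.181 and 0.169). JUN (0.12 ± 0.10, adjusted p = 0.387) and IER2 (-0.17 ± 0.13, adjusted p = 0.312) did not pass, though both did without replicate 2 of the vehicle group (adjusted p = 0.0904 and 0.0725). GO-203 was given to wild-type cells and DOX to the shRNA line, and MUC1 mRNA was higher with the former and lower with the latter.

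**Figure D4:**
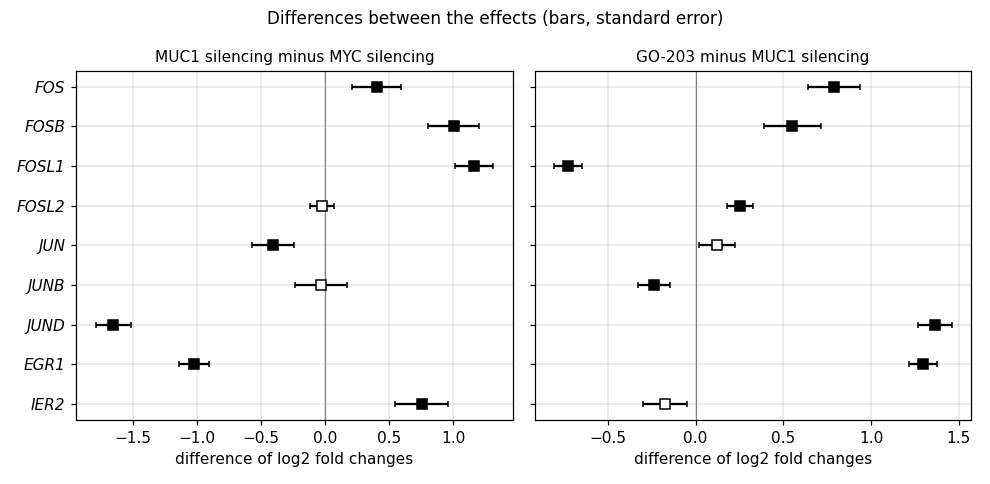
Difference between the log2 fold changes of MUC1 and MYC silencing, and between those of GO-203 and MUC1 silencing, for 9 members with standard errors. Filled squares passed the test of the difference, with JUND at -1.65 and 1.36.

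Across the 7 groups, the order of levels was distinct for each gene. FOS was highest with GO-203 (23.7 ± 3.18 CPM, SD, n = 3) and lowest in 2D cells (1.64 ± 0.37 CPM, SD, n = 3), and the 5 groups between, at 8.48 to 10.9 CPM, overlapped with their neighbours. FOSL1 fell in the order vehicle-treated tet-MYCshRNA cells (393 CPM), vehicle- and DOX-treated tet-MUC1shRNA cells (278 and 259 CPM), 3D cells (199 CPM), DOX-treated tet-MYCshRNA cells (167 CPM), GO-203 (112 CPM) and 2D cells (23.4 CPM). In that order the vehicle- and DOX-treated tet-MUC1shRNA libraries overlapped, as did those of 3D cells and DOX-treated tet-MYCshRNA cells. Over the 21 libraries, Pearson's r of log2(CPM + 1) was 0.93 between FOS and EGR1, 0.90 between FOSL1 and IER2 and -0.38 between JUN and IER2. These libraries share 7 groups, so r is a description of the group pattern. Among 13585 genes with a mean of at least 1 CPM, the pattern most like FOS was that of SLCO4C1 (r = 0.967), most like FOSL1 that of ETV4 (r = 0.978) and most like EGR1 that of LYRM1 (r = 0.985). For JUND it was AKNA (r = 0.968), for JUN PPP1R7 (r = 0.972), for FOSB ENSG00000250041 (r = 0.948), for IER2 TTPA (r = 0.938), for FOSL2 ENSG00000272574 (r = 0.925) and for JUNB ZBTB45 (r = 0.888).

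IER3, a stress-induced regulator of survival, could not be described with the same confidence. It had 0 to 14 counts in the 15 libraries outside the tet-MUC1shRNA line, and was too low to be tested there. In that line it had 34, 42 and 50 counts with vehicle and 56, 76 and 18 counts with DOX, a log2 fold change of -0.17 ± 0.32 (adjusted p = 0.674). IER3 lies in the major histocompatibility region (chr6:30743199-30744548 in GENCODE 44). Other genes of that region which cells commonly express were also near 0, such as DDX39B (0 to 15 counts) and CSNK2B (0 to 12 counts), whereas FLOT1 (1730 to 5407 counts) and TUBB (1030 to 16521 counts) were not. These were chosen after their values were seen. The handling of multi-mapped reads is not given in the sources used here, so the level of IER3 is uncertain. In addition, ERCC1 overlaps FOSB, HOOK2 overlaps JUNB and FOSL2-AS1 overlaps FOSL2 on the other strand. On that strand ENSG00000267598 and ENSG00000287296 overlap IER2, and HCG20 and IER3-AS1 overlap IER3. FOSL2 overlaps ENSG00000270640 on the same strand, and 1 annotated pseudogene is named after FOSL1. The strand setting of the counting is not given, so the counts of these genes may include reads of their neighbours.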

How the data were processed

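BT-549 cells in 7 groups of 3 were sequenced as stranded paired-end mRNA libraries. The authors deposited raw counts per gene, made by aligning reads to GRCh38 with STAR (2.7.3a in the submitters' processing notes) and counting with featureCounts. The annotation release is not given in the sources used here. Blank cells, which covered the same genes in every library of a block, were read as 0. The blocks were the 2D and 3D cells, the GO-203 cells, the tet-MUC1shRNA line and the tet-MYCshRNA line. The GO-203 cells, with 7587 blank genes, were thus a block apart from their 3D control, where 6498 genes were blank. The reason is not given in the sources used here, and its part in the GO-203 results was not tested. In a library, 67.0% to 71.1% of the counts from 1 to 20 were even, and whether both reads of a pair were counted is not given in the sources used here.

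In R 4.3.3, genes were filtered with filterByExpr, scaled by TMM factors and tested with edgeR 4.0.16's quasi-likelihood test, with Benjamini-Hochberg adjustment over all genes tested. Each comparison was fitted on its own 6 libraries, and differences between effects on 12. Genes passed at an adjusted p below 0.1, and changes above a log2 of 1.5 were counted as large. The standard error was the absolute log2 fold change divided by the square root of F. Levels per kb used exon lengths and positions of GENCODE 44.

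The members and lists were chosen with earlier results of these data known. Named genes of the lists were up to 4 per list and comparison with the largest changes above a log2 of 1.5 and at least 1 CPM in a group. A gene that this rule names is not reported here. The likeness of a gene to a member was Pearson's r over 21 libraries. Replicate pairs differed by more than sampling noise (chi-square per degree of freedom 4.36 to 52.8). Deviations of genes from their group mean correlated at -0.52 to 0.33 between same-numbered libraries of compared groups (12 pairs). The numbers were therefore not taken as pairs. Alternatives were DESeq2 1.42.0, RLE factors, library size alone, 2 other filters, a joint fit of the 21 libraries, the replicate block, another group for 3D cells, an adjusted p below 0.05, leaving out each library, and halved counts, which was added after seeing the data. The fits were tested on simulated data. Counts were lowest for IER3 (at most 76) and, in 2D cells, for FOS (72 to 112) and FOSB (52 to 91), where counting error is a larger part of the spread.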

Additional observations from a re-analysis of the deposited data

Results flagged for a closer look

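The changes on MUC1 silencing and on MYC silencing differed for 7 members by the test of the difference itself, an interaction in edgeR's quasi-likelihood test with an adjusted p below 0.1. As MUC1 minus MYC on the log2 scale, the differences were -1.65 for JUND, -1.03 for EGR1 and -0.41 for JUN. They were 1.16 for FOSL1, 1.003 for FOSB, 0.75 for IER2 and 0.40 for FOS. Of all genes tested, 52.9% differed by the same rule. The call for FOS was lost in 8 of 12 fits that left out 1 library, and its difference ranged from 0.26 to 0.54 over the 12. The call held without replicate 2 of either vehicle group, replicate 3 of the tet-MUC1shRNA DOX group or replicate 2 of the tet-MYCshRNA DOX group. The call for JUN was lost in 3 of 12 fits, without replicate 1 of the tet-MUC1shRNA vehicle group, replicate 3 of the tet-MYCshRNA vehicle group or replicate 2 of the tet-MYCshRNA DOX group. The JUN difference ranged from -0.55 to -0.27 over the 12. No separate formal check for single outlying values was run on these differences.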

How the results depend on the processing

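The numbers of members that passed were 9 higher and 0 lower in 3D cells, 5 and 1 with GO-203, 4 and 3 on MUC1 silencing and 3 and 3 on MYC silencing, and 7 for each difference between effects. When the tet-MUC1shRNA vehicle group replaced 3D cells, 1 member was lower, JUN (-0.59). On MYC silencing, 5 members were higher with no filter beyond 1 count and in the fit of all 21 libraries, and 3 to 5 when 1 library was left out. The other counts stayed within 1.5 times of these under every alternative run. The fit with the replicate block changed no call, and gave a log2 fold change of 3.10 for FOSL1 in 3D cells.

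Apart from that of JUN, changes of sign were seen for values that had not passed. In the fit of all 21 libraries FOSB on MUC1 silencing was -0.0024. With library size alone, FOSL1 on MUC1 silencing was 0.090 (adjusted p = 0.0594), JUN for GO-203 against MUC1 silencing -0.036, and FOSL2 and JUNB for MUC1 against MYC silencing 0.18 (adjusted p = 0.0877) and 0.17. The last pair were 0.039 and 0.032 with no filter beyond 1 count, and 0.048 and 0.040 with at least 10 counts in every library. With 1 library left out, FOSB ranged from -0.055 to 0.075 and IER3 from -0.39 to 0.12 on MUC1 silencing, and FOS from -0.18 to 0.10 on MYC silencing. The difference between MUC1 and MYC silencing ranged from -0.11 to 0.022 for FOSL2 and from -0.24 to 0.14 for JUNB, and that between GO-203 and MUC1 silencing from -0.00070 to 0.22 for JUN.

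Library size alone moved the share of higher genes among those called from 49.1% to 61.2% for MUC1 against MYC silencing and from 53.6% to 38.4% for GO-203 against MUC1 silencing, and the median over all genes by 0.20 and -0.15. By that scaling FOSL2 (0.10, adjusted p = 0.256) no longer differed between GO-203 and MUC1 silencing, nor JUN (-0.20, adjusted p = 0.292) between MUC1 and MYC silencing by edgeR's test, whereas IER2 (-0.33, adjusted p = 0.0522) did differ between GO-203 and MUC1 silencing. JUN on MUC1 silencing did not pass with at least 10 counts in every library (adjusted p = 0.119). In the fit of all 21 libraries JUND with GO-203 (0.23, adjusted p = 0.105), the FOS difference (0.37, adjusted p = 0.134) and the JUNB difference (-0.24, adjusted p = 0.345) did not pass. JUNB on MYC silencing passed with DESeq2 (adjusted p = 0.0992) and with halved counts (adjusted p = 0.0935). The causes were not tested. Counts were lowest for IER3, and for FOS and FOSB in 2D cells.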
